A study of Mus musculus with 13 samples.

Results

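The transcriptome of fetal oocytes that retained the glucocorticoid receptor (GR) was described at embryonic day E17.5 from every control library with counts, 6 of the 13 in the series. The members were chosen by their labels alone, as the 3 WT and the 3 flox embryos, and the KO and cKO embryos were not used. Each library came from the germ cells of 1 female embryo, sorted by their *Pou5f1*-GFP signal and profiled by 3′ Tag-Seq, which reads the ends of polyadenylated transcripts. WT embryos carried intact *Nr3c1* alleles and came from a cross of parents heterozygous for a GR null allele. The flox embryos were homozygous for a floxed *Nr3c1* allele and lacked the *Pou5f1*-CreERT2 allele that the cKO embryos of the same cross carried. The strain labels name Tg(Pou5f1-EGFP)2Mnn and Nr3c1tm1.1Jda for both groups and add Pou5f1tm1.1(cre/Esr1*)Yseg for flox, and the absence of Cre in flox embryos is given by the methods of the study. The dams of flox embryos had received 125 μg / g tamoxifen at E10.5, whereas no tamoxifen is given for the WT embryos. The transgene shared by all 6 embryos drives GFP from the *Pou5f1* regulatory region without its proximal enhancer, and the study used it to sort germ cells. Whether this sort favours a stage of meiosis was not tested.

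A female germ cell of the mouse enters meiosis in the fetal ovary and, late in gestation, moves through the pachytene stage towards arrest in diplotene. In this prophase the homologous chromosomes are broken, aligned and recombined along a protein axis of cohesins and HORMA domain proteins, and the synaptonemal complex zips the paired axes together. The same cells silence transposons with piRNAs, store RNA bound to germline proteins and begin to transcribe the regulators of folliculogenesis.

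Between 2048706 and 3674989 reads per embryo were counted on genes. Levels are given as CPM, the count scaled to the embryo's total over all gene rows, with no division by gene length because a 3′ protocol reads mainly the end of each transcript. Ranks are by mean CPM over the 6 embryos. A count of 1 was worth 0.272 to 0.488 CPM. Of the 55335 genes in the table, 20122 had a count in at least 1 of the 6 embryos, 9931 had a count in every embryo and 35213 had none, which allows a level of up to 0.201 CPM for 3 counts over the pooled libraries. Between 13841 and 15629 genes were detected per embryo, and the range was 13685 to 15573 after each library was thinned to the smallest total. No molecular identifiers are described, so the limit of 0.201 CPM covers counting error only. It sets no bound for a gene whose reads could not be assigned to it. All 1250 coding genes overlapped whole by other genes had no counts. Nothing in the labels says whether embryos shared a litter.

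**Figure D1:**
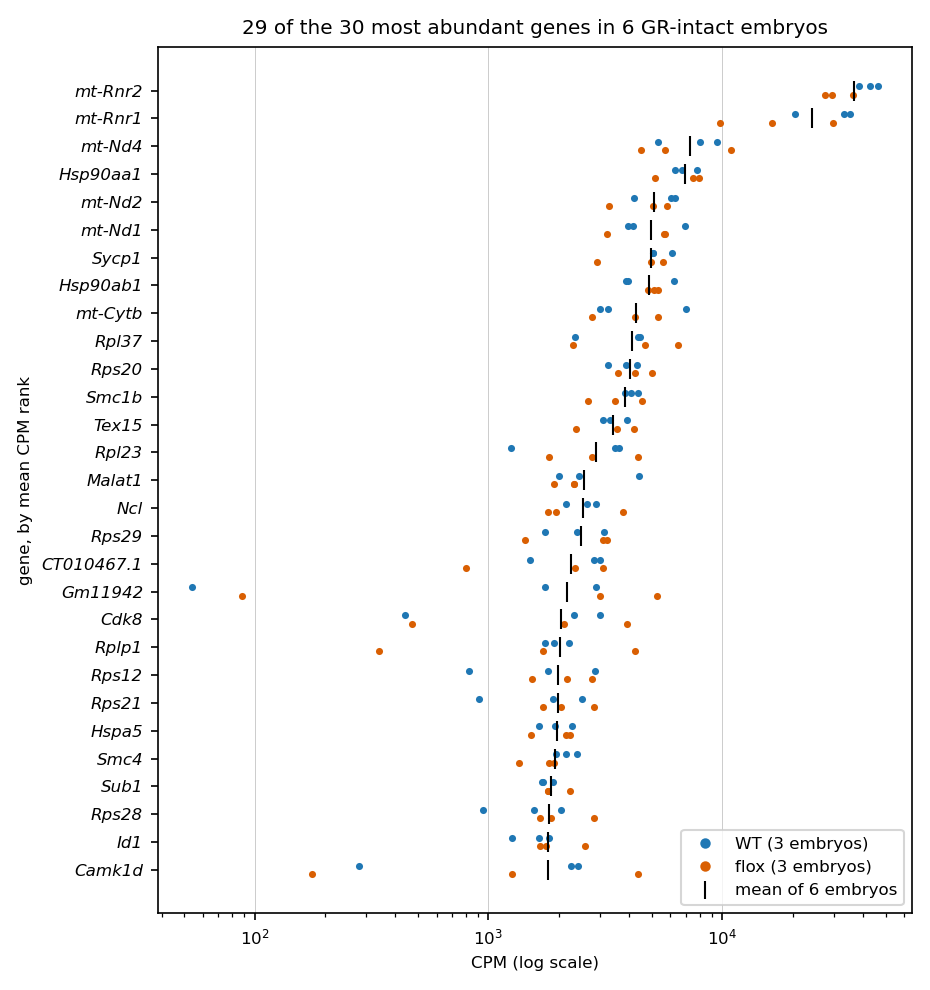
CPM (log axis) of 29 of the 30 genes of highest mean CPM in each of 3 WT (blue) and 3 flox (orange) embryos, ordered by the mean over all 6 (black bar). *Sycp1* is at rank 7 and *Smc1b* at rank 12, and *Gm11942*, *Cdk8* and *Camk1d* spread the most, with 2 low embryos each.

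The genes of highest CPM in these libraries were those of the mitochondrial genome, heat shock proteins and ribosomal proteins, and the meiotic genes *Sycp1* and *Smc1b*. This order is of reads assigned to genes, and 17 of the 30 highest genes stayed in the top 30 per kilobase of merged exons. The mitochondrial rRNAs *mt-Rnr2* and *mt-Rnr1* led with 36756 ± 7411 and 24097 ± 10176 CPM (SD, n = 6 embryos here and below). The cytosolic chaperone *Hsp90aa1* was at rank 4 with 6916 ± 1066 CPM and its paralog *Hsp90ab1* at rank 8 with 4881 ± 891 CPM. *Sycp1*, the transverse filament of the synaptonemal complex, was at rank 7, and *Smc1b*, the meiosis-specific SMC subunit of cohesin, at rank 12. *Tex15*, a germ cell gene needed for meiotic recombination and transposon silencing, followed at rank 13 with 3409 ± 649.7 CPM. The counts were spread over many genes, since the 10 most abundant genes of an embryo held 8.65% to 12.6% of its counts, the 100 most abundant held 20.2% to 24.8%, and 758 to 956 genes made up 50% of them.

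The other genes of the top 30 were ribosomal protein genes and a mixed group of nuclear and signalling genes. *Ncl*, the nucleolar protein nucleolin, reached 2531 ± 729 CPM and *Hspa5*, the chaperone BiP of the endoplasmic reticulum, 1962 ± 319 CPM. *Smc4*, the core subunit of condensin, reached 1929 ± 354 CPM and *Sub1*, a transcriptional coactivator, 1854 ± 199 CPM. *Id1*, an inhibitor of bHLH factors that BMP signals induce, stood at rank 29 with 1790.4 ± 431 CPM. The noncoding genes of highest mean CPM were the 2 mitochondrial rRNAs, the nuclear RNA *Malat1* with 2567 ± 925 CPM, the rRNA gene *CT010467.1* with 2266 ± 924 CPM and the processed pseudogene *Gm11942* with 2174 ± 1985 CPM. By class, protein-coding genes held 90.2% ± 1.66 of the counts, mitochondrial rRNA 6.09% ± 1.72, long intergenic noncoding RNA 1.35% ± 0.121, processed pseudogenes 0.918% ± 0.274 and nuclear rRNA 0.260% ± 0.113.

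The 3 genes taken as markers of meiotic cells were all present in every embryo, at very different levels. *Sycp1* (ENSMUSG00000027855.13) lies on the minus strand of chromosome 3 of mm10 from 102818499 to 102936100 and was counted 7212 to 18539 times per embryo. Its level was 6069.5, 5034 and 5045 CPM in the WT embryos and 2911, 5581 and 4977 CPM in the flox embryos. Flox embryo 1 stood alone at the low end and the other 5 lay within 4977 to 6070 CPM, so the groups overlapped.

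*Smc1b* (ENSMUSG00000022432.7), on the minus strand of chromosome 15 from 85064689 to 85131964, was at 3830.4, 4069 and 4347 CPM in WT and 2668, 3494 and 4549 CPM in flox embryos. *Dmc1* (ENSMUSG00000022429.11), the meiosis-specific recombinase, lies on the same chromosome from 79561497 to 79605109 and was at 164, 57.6 and 88.2 CPM in WT and 57.7, 165 and 102 CPM in flox embryos. It was lowest in WT embryo 2 and flox embryo 1 and highest in WT embryo 1 and flox embryo 2, and its mean of 106 CPM gave it rank 2241. On a scale of CPM per kilobase of merged exons, *Sycp1* was at rank 20, *Smc1b* at rank 35 and *Dmc1* at rank 1143. Meiotic markers were thus present under the germ cell label in all 6 embryos. Each library pooled the sorted cells of an embryo, so fewer cells that express a gene and less of its RNA per cell cannot be told apart.

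Promoters are shown for the meiotic genes of highest mean CPM whose window, from 250 bases before to 50 bases after the RefSeq start (GRCm38.p6), held a motif that was searched for. The motifs were CNCCTCAG, the sequence bound by the meiotic regulator STRA8, and the E-box CACGTG, each on both strands. Matches are in capitals, and matches to the first motif in *Sycp1* and *4930447C04Rik* read on the other strand, as CTGAGGGG and CTGAGGAG. *Sycp1* is on the minus strand (chr3:102936051-102936350), *4930447C04Rik*, also called *Six6os1*, on the minus strand (chr12:72917716-72918015) and *Stag3* on the plus strand (chr5:138280259-138280558).
Sycp1: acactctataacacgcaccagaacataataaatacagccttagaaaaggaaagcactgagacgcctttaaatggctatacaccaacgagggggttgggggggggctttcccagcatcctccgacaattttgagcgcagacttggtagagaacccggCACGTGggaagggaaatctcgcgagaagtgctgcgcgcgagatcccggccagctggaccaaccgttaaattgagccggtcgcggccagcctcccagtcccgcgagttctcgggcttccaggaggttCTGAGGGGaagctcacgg
4930447C04Rik: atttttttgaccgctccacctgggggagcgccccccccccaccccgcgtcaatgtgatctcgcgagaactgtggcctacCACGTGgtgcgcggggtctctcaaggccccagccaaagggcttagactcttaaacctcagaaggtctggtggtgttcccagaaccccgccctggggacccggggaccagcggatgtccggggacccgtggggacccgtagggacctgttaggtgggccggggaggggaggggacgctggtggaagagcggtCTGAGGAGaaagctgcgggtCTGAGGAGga
Stag3: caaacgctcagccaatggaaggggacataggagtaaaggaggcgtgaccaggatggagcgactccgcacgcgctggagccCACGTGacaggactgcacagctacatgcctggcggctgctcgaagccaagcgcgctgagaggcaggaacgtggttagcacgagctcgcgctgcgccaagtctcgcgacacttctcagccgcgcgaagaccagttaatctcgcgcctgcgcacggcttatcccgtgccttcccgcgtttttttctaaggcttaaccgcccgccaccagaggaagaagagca

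The first 2 of these windows held both motifs and the window of *Stag3* only the E-box, and the windows of *Smc1b* and *Sycp2* held neither. A promoter was found for 38 of the 50 genes of the meiosis lists, with 44 windows in all. Of these 44 windows 11 held the E-box (25%), against 7.15% of all 32851 windows of this length, and 22.7% held the STRA8 motif, against 7.94%. A TATAAA match was found in 6.82% of them and in 13.6% of all windows. In the windows of the cytosolic ribosomal protein genes the E-box was found in 10.53% and the STRA8 motif in 6.58%, and in those of the 100 most abundant genes in 18.6% and 15.1%. These shares are a description of letters and were not tested.

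**Figure D2:**
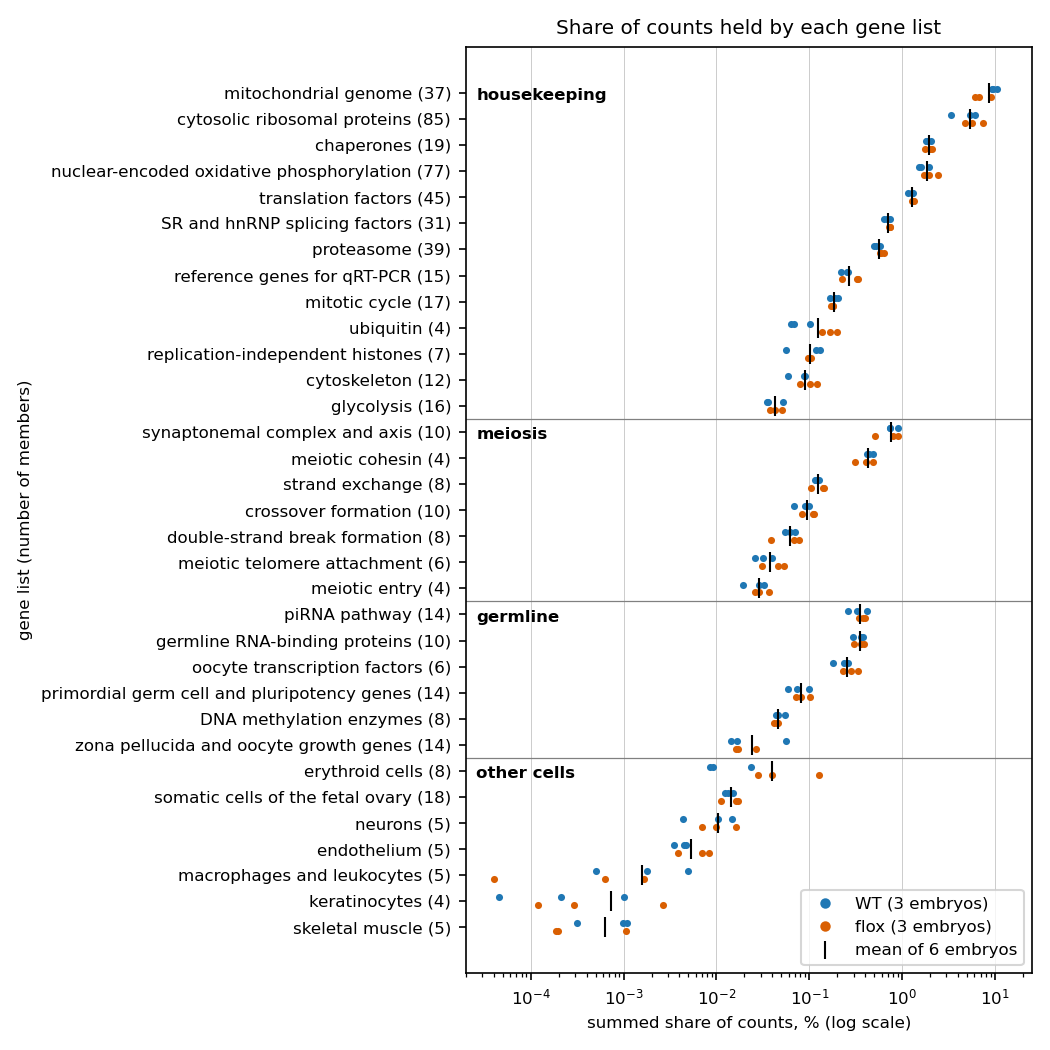
Summed share of counts (percent, log axis) of each gene list, with its number of members, in 3 WT (blue) and 3 flox (orange) embryos and their mean (black bar). Lists for which an embryo had 0 counts, the Y-linked, pituitary and steroid receptor lists are not drawn, and erythroid genes reach 0.126% in flox embryo 1.

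RNA for protein synthesis and respiration took the greatest share of the counts among the lists. All housekeeping lists together, 395 genes of which 357 were detected, held 20.9% ± 1.98 of the counts, against 1.53% ± 0.224 for the 50 genes of the meiosis lists and 1.11% ± 0.116 for the 66 genes of the germline lists. The mitochondrial genome held 8.51% ± 1.72. Its share was 9.56%, 10.51% and 9.18% in the WT embryos and 9.02%, 6.70% and 6.11% in the flox embryos. The groups did not overlap in this sum, as was also so for 8.35% of single genes tested. Most of the sum, 6.09% ± 1.72 of the counts, was in the 2 mitochondrial rRNAs, whose own summed share overlapped between the groups. WT and flox embryos were separated in 1 of the 12 tested genes of the list, which was not a coding gene. The rRNA *mt-Rnr2* shared this pattern with 43052, 46239 and 38309 CPM in WT and 36184, 27409.9 and 29341 CPM in flox embryos, but its log2 difference of −0.50 (standard error 0.27) did not pass the test (edgeR quasi-likelihood test, Benjamini-Hochberg adjusted p = 1.00, 3 against 3 embryos).

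The protein-coding genes of the mitochondrial genome were far from equal in CPM. The complex I subunit *mt-Nd4* was at 7316 ± 2549 CPM, *mt-Nd2* at 5111 ± 1179 CPM and *mt-Nd1* at 4949 ± 1391 CPM, and cytochrome b, *mt-Cytb*, was at 4269 ± 1647 CPM. The cytochrome oxidase gene *mt-Co1* was at 946 ± 351 CPM. *mt-Co2*, *mt-Co3*, *mt-Atp6*, *mt-Atp8*, *mt-Nd3* and *mt-Nd4l* had no counts in any embryo, nor had 13 of the 22 tRNA genes. In 5 of these 6 coding genes, all but *mt-Atp8*, 98.9% to 100% of the 31-base words in the last 300 bases also occurred in the transcripts of another gene.

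Of the 85 cytosolic ribosomal protein genes, 79 were detected and 64 were at 100 CPM or more, with 5.43% ± 1.33 of the counts in all. WT embryo 2 had the lowest share with 3.39% and flox embryo 1 the highest with 7.34%. *Rpl37* ranged from 2309 to 6492 CPM with a median of 4408, *Rps20* from 3231 to 5002 CPM with a median of 4057, and *Rpl23* from 1253 to 4361 CPM with a median of 3130.2. *Rps29*, *Rplp1*, *Rps12*, *Rps21* and *Rps28* also stood among the 30 most abundant genes, and *Rplp1* was at 342 CPM in flox embryo 2 and at 4244 CPM in flox embryo 1. Other genes share 52.2%, 79.3%, 95.2%, 59.6% and 47.4% of the 3′ end words of these 5, in that order. The shared percent was 0 for *Rpl37* and *Rps20* and 24.8% for *Rpl23*. Among the 6 members at 0 were *Rpl24*, *Rpl13*, *Rps10*, *Rpl35* and *Rpl35a*, and other genes covered 98.1% to 100% of the length of each.

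Respiration and translation also took large shares through nuclear genes. Of 77 nuclear genes of oxidative phosphorylation, 73 were detected and held 1.87% ± 0.329, led by *Cox6c* with 1189.6 ± 352 CPM, *Ndufc1* with 1000.3 ± 313 CPM, *Atp5f1* with 974 ± 319 CPM and *Ndufa6* with 970.0 ± 377 CPM. *Ndufa13*, *Ndufa4l2*, *Cox4i1* and *Atp5o* had no counts, and other genes overlap 3 of these 4 over all or nearly all of their length. The 45 translation factors held 1.28% ± 0.0612, with the elongation factor *Eef2* at 1523 ± 482 CPM and the initiation factors *Eif5b* at 998 ± 209, *Eif5* at 830.1 ± 117 and *Eif4g2* at 807 ± 155 CPM, while *Eif2s2* and *Eif3m* had no counts. Other genes overlap *Eif2s2* and *Eif3m* over all or nearly all of their length. The share of the translation factor list ran only from 1.16% to 1.34% among the embryos.

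Chaperones had the highest median member of the 38 lists, 395 CPM. The 19 genes held 1.92% ± 0.149 of the counts and 18 of them were at 100 CPM or more. *Hsp90aa1* was at 6730.4, 7828 and 6306 CPM in WT and 5172, 7929.5 and 7531 CPM in flox embryos, lowest in flox embryo 1. The chaperonin subunit *Cct2* followed *Hsp90ab1* and *Hspa5* with 657 ± 105 CPM. *Hspa8*, the constitutive HSP70, was only at 97.7 ± 76.5 CPM and varied from 8.15 CPM in WT embryo 1 to 205 CPM in flox embryo 1, with 90.7% of its 3′ end words shared with other genes.

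The SR and hnRNP splicing factors, 31 genes, held 0.709% ± 0.0429, with *Hnrnpu* at 843 ± 135, *Hnrnpa0* at 780.2 ± 371, *Hnrnpdl* at 729 ± 124 and *Srsf5* at 544 ± 198 CPM, and *Srsf2* without counts. Other genes overlap *Srsf2* over all or nearly all of its length. The 39 proteasome genes held 0.568% ± 0.0496, led by *Psma2* with 599 ± 322, *Psmd2* with 449.5 ± 56.8, *Psmd13* with 382 ± 153 and *Psmd4* with 318 ± 87.6 CPM. The immunoproteasome subunits *Psmb8* and *Psmb10* had no counts, and other genes overlap 1 of the 2 over all or nearly all of its length. The 4 ubiquitin genes held 0.123% ± 0.0550, with *Ubb* at 289 ± 341 CPM and *Rps27a* at 250.3 ± 167 CPM.

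Cell cycle genes were present at low share, with 0.182% ± 0.0132 for 17 genes, all of them detected. *Birc5*, a chromosomal passenger protein, led with 434 ± 86.3 CPM, followed by the replication genes *Mcm3* with 221 ± 50.7 and *Mcm5* with 197 ± 84.8 CPM and the topoisomerase *Top2a* with 199 ± 79 CPM. The mitotic kinase *Aurkb* was at 5.51 ± 7.36 CPM. The 7 replication-independent histone genes held 0.101% ± 0.0252, with *H3f3b* at 503 ± 126, *H2afv* at 182 ± 61.6, *H1f0* at 127 ± 37.7 and *H2afx* at 94.3 ± 30.6 CPM.

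**Figure D3:**
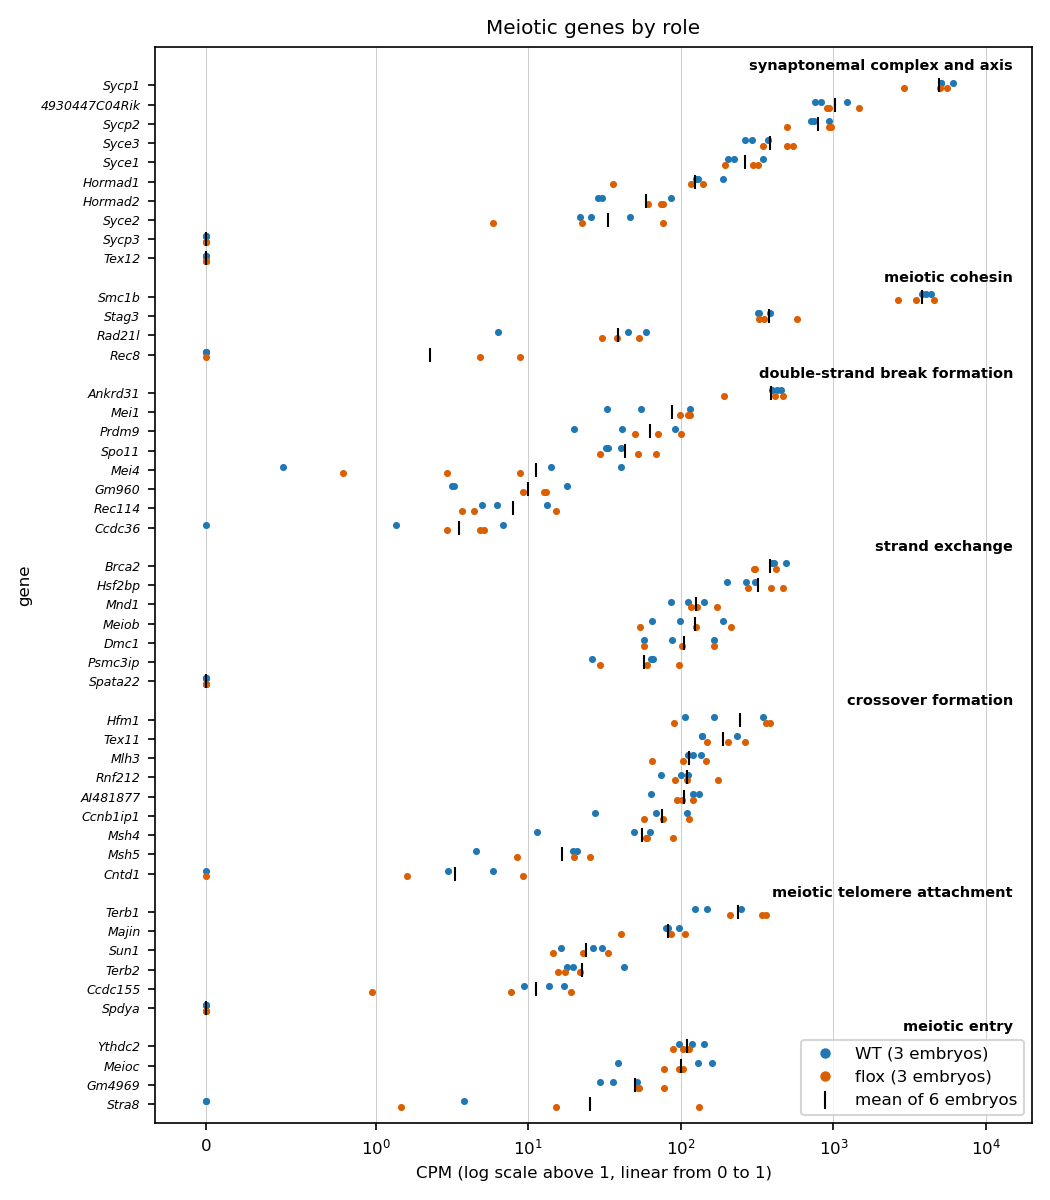
CPM of 48 of the 50 meiotic genes, grouped by role, in 3 WT (blue) and 3 flox (orange) embryos with the mean (black bar), on an axis that is linear from 0 to 1 and logarithmic above. *Sycp1* and *Smc1b* are at 2668 CPM or more in every embryo, and *Sycp3*, *Tex12*, *Spata22* and *Spdya* are at 0 in all 6.

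Of the 50 meiotic genes, 46 were detected, 42 had a count in every embryo and 23 were at 100 CPM or more. The median over all 50, those at 0 included, was 78.7 CPM. The median of the 10877 genes that passed the filter on low counts was 36.1 CPM, so the sets are unlike. *Sycp1* and *Smc1b* each made up the greater part of a list, as the 10 genes of the synaptonemal complex and axis held 0.762% ± 0.141 of the counts and the 4 cohesin genes 0.425% ± 0.0654. These shares were 0.276% and 0.0851% with every gene that another gene overlaps left out of the lists and the total.

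Within the synaptonemal complex, *Sycp1* was followed in CPM by a gene of the central element, *4930447C04Rik*. The other central element genes with counts were below *Sycp2*. *4930447C04Rik*, which encodes the central element protein SIX6OS1, was at 1224, 754 and 829 CPM in WT and 941, 1477 and 909.8 CPM in flox embryos, at rank 58. *Syce3* was at 385 ± 111 and *Syce1* at 264 ± 64.6 CPM, both central element components, whereas *Syce2* was at 33.3 ± 25.1 CPM with 77 CPM in flox embryo 2 and 5.86 CPM in flox embryo 3. *Sycp2*, of the lateral element, was at 797 ± 183 CPM. The HORMA domain genes *Hormad1* and *Hormad2*, whose products leave the axis on synapsis, were at 123 ± 49.6 and 59.5 ± 24.6 CPM.

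*Sycp3*, the partner of SYCP2 in the lateral element, and *Tex12*, of the central element, had no counts in any embryo. Other genes overlap 100% of the length of each, and 1250 of the 1250 coding genes in the table that are overlapped whole had no counts. *Spata22* is also overlapped whole, and *Spdya* over 98.7% of its length.

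Among cohesin genes, *Stag3* was at 380.3 ± 98 CPM and the kleisin *Rad21l* at 38.8 ± 19 CPM. The other meiotic kleisin, *Rec8*, gave counts only in flox embryos 1 and 2, at 4.84 and 8.81 CPM, and 0 in the other 4. Its mean gave it rank 13096 by CPM.

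The genes of DNA breakage held a far lower share than the synaptonemal complex and axis list, with 0.0618% ± 0.0135 of the counts for 8 genes. *Ankrd31*, which guides break formation, was the most abundant with 392 ± 100.5 CPM, followed by *Mei1* with 88 ± 35.4, the histone methyltransferase *Prdm9*, which marks hotspots, with 62.6 ± 31.1, and *Spo11*, the break-forming enzyme, with 42.8 ± 15.2 CPM. *Mei4*, *Gm960* (*Top6bl*), *Rec114* and *Ccdc36* (*Iho1*) had means of 3.52 to 11.3 CPM, and *Mei4* ranged from 0.454 to 40.8 CPM with a median of 5.87.

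Strand exchange genes held 0.125% ± 0.0151, with 7 of 8 detected in every embryo. *Brca2*, the loader of the recombinases, was at 387 ± 71.7 CPM and its meiotic partner *Hsf2bp* at 319 ± 96.1 CPM. *Mnd1* was at 126 ± 29.5 CPM, near *Dmc1* in CPM rank, although other genes share 70.4% of its 3′ end words. *Meiob*, which coats single-stranded DNA with SPATA22, was at 124 ± 65 CPM.

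The crossover genes held 0.0937% ± 0.0168, and all 10 were detected. With the overlapped genes left out their share was 0.00336%. The helicase *Hfm1* led with 243 ± 137 CPM and split into 3 embryos from 348 to 385 CPM and 3 from 89.6 to 166 CPM, WT and flox in both. *Tex11* was at 188 ± 54.1, *Mlh3* at 114 ± 28.6 and the SUMO ligase *Rnf212* at 110.4 ± 35 CPM. *Msh4* and *Msh5*, which form a heterodimer, were at 55.4 ± 25.3 and 16.5 ± 8.14 CPM.

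Genes that tie telomeres to the nuclear envelope held 0.0378% ± 0.0102, with *Terb1* at 239 ± 97.8, *Majin* at 82.1 ± 22.7, *Sun1* at 24 ± 7.48 and *Terb2* at 22.4 ± 9.9 CPM. Genes of meiotic entry held 0.0287% ± 0.00585. The RNA-binding partners *Ythdc2* and *Meioc*, which repress mitotic transcripts, were at 111 ± 19.1 and 101 ± 41.9 CPM, and *Gm4969*, which encodes the STRA8 partner MEIOSIN, at 49.9 ± 16.6 CPM. *Stra8*, the inducer of meiosis, was at 0, 0 and 3.81 CPM in WT and 132, 15.3 and 1.46 CPM in flox embryos. Its mean of 25.4 CPM rests on flox embryo 1.

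Among the lists of germline genes outside meiosis, the highest shares were those of RNA-binding proteins, 0.347% ± 0.0392 for 10 genes, and the piRNA pathway, 0.353% ± 0.0565 for 14. *Dazl*, a translational regulator of germ cells, was at rank 51 with 1099, 1067 and 1272 CPM in WT and 1126, 1132 and 939.6 CPM in flox embryos. *Cpeb1*, which controls polyadenylation in the cytoplasm, was at 908 ± 161 CPM, and the RNA-binding proteins *Elavl2* and *Rbm46* at 749 ± 180.4 and 281 ± 63.9 CPM. *Ddx4*, the vasa helicase used widely as a germ cell marker, was at 216 ± 53.4 CPM and every embryo had at least 158 CPM.

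In the piRNA pathway, *Mael* led with 649, 898 and 1614 CPM in WT and 1508, 1266 and 1120.2 CPM in flox embryos, lowest in WT embryo 1. *Mov10l1*, the helicase of piRNA biogenesis, was at 519 ± 124, the PIWI protein *Piwil2* at 494 ± 137 and *Tdrd9* at 373 ± 97.4 CPM. All 14 members were detected. *Piwil1* and *Piwil4* were at 30.7 ± 7.01 and 13.8 ± 6.9 CPM, and *Tdrd6*, which was at 8.71 CPM in WT embryo 3 and 0.928 CPM in flox embryo 2, had no counts in the other 4.

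The 6 oocyte transcription factors were all detected and held 0.254% ± 0.0506. *Figla*, which drives zona pellucida genes and primordial follicle formation, was at 681, 869.7 and 1038 CPM in WT and 1658, 879 and 1139 CPM in flox embryos, highest in flox embryo 1. *Sohlh1* was at 634 ± 211, *Lhx8* at 334 ± 91.7, *Taf4b* at 249 ± 103, *Nobox* at 222 ± 29.5 and *Sohlh2* at 61.1 ± 31.1 CPM. The 14 zona pellucida and oocyte growth genes held 0.0244% ± 0.0159, and 2 of them had no counts, *Bmp15* and *Khdc3*. *Zp2*, *Zp3* and *Zp1* were at 14.1 ± 10.2, 3.62 ± 4.46 and 0.232 ± 0.568 CPM. *Ooep* was at 7.72 ± 9.48 CPM and *Gdf9*, an oocyte growth factor, at 6.6 ± 6.81 CPM.

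*Nlrp5*, a maternal-effect gene of the subcortical complex, was the highest of the oocyte growth list with 82.8, 447 and 27.8 CPM in WT and 42, 25 and 149.9 CPM in flox embryos. WT embryo 2 stood alone at the high end. *Tle6* of the same complex was at 74 ± 15.6 CPM in a narrower range, 54.9 to 87.7 CPM.

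Genes of primordial germ cells and pluripotency held 0.0813% ± 0.0167, nearly all of it in 3 of the 14 genes. The receptor tyrosine kinase *Kit* was at 313 ± 118, *Dppa3* (*Stella*) at 304 ± 80.2 and *Dppa4* at 143 ± 69.5 CPM, and *Tfcp2l1* followed with 26.1 ± 7.65 CPM. *Pou5f1*, whose regulatory region drives the GFP transgene, was at 14.1, 0.464 and 0 CPM in the flox embryos and 0 in the 3 WT embryos. *Nanog*, *Prdm14* and *Tfap2c* were each under 1 CPM on average, and *Utf1* had no counts. *Sox2* had none either and is overlapped whole by another gene. *Nanos2*, a male germ cell gene, and *Dnd1* had no counts, and *Nanos3* was counted only in flox embryos 1 and 2.

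The 8 DNA methylation enzymes held 0.0464% ± 0.00455, with *Tet3* at 145 ± 42.9, *Dnmt3a* at 88.5 ± 28.5, *Dnmt1* at 82.4 ± 26.9 and *Uhrf1* at 71.4 ± 27.9 CPM, while *Dnmt3l*, the cofactor of de novo methylation, was at 1.77 ± 2.38 CPM. Of 6 steroid receptor genes, all were detected and none reached 100 CPM. *Nr3c1* itself, which encodes GR, was at 44.6, 27.7 and 58.8 CPM in WT and 44.4, 48.7 and 105 CPM in flox embryos, highest in flox embryo 3, at rank 4114. *Esr1* was at 27.8 ± 18.6 and the mineralocorticoid receptor gene *Nr3c2* at 9.58 ± 9.61 CPM.

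**Figure D4:**
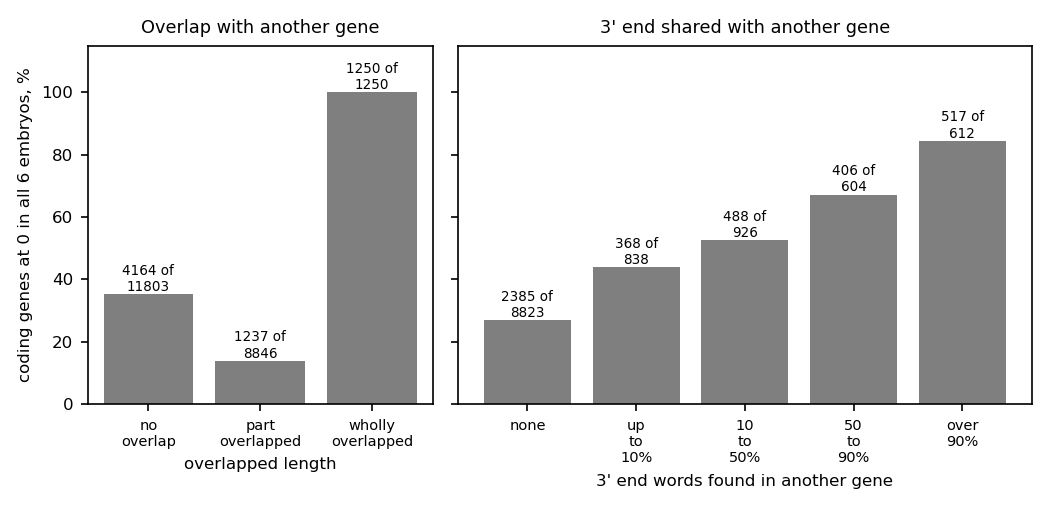
Percent of protein-coding genes with 0 counts in all 6 embryos, by overlap of the gene's interval with other genes (left) and, for genes with no overlap, by the percent of 31-base words of the last 300 bases that occur in another gene's transcripts (right). Bars start at 0 and carry counts of genes, and the percent at 0 rises from 27.0% with no shared words to 84.5% with over 90% shared.

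Genes at 0 included some that every cell uses, and the percent at 0 differed with the layout of the genes. Of 21899 protein-coding genes, 6651 had no counts in any embryo. All 1250 genes overlapped whole were among them, against 35.3% of 11803 genes with no overlap and 14.0% of 8846 overlapped in part. Among the genes with no overlap, the percent at 0 was 27.0% where no 3′ end word was shared, 43.9% with up to 10% shared, 52.7% with 10 to 50%, 67.2% with 50 to 90% and 84.5% with over 90%. The part of overlap and shared sequence in these zeros was not tested. Since every coding gene overlapped whole was at 0, a 0 there does not tell whether the RNA was absent.

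The usual reference genes of qRT-PCR were an uneven set on this scale. *Actb* was at 307, 532 and 408 CPM in WT and 477, 488 and 541 CPM in flox embryos, *Rplp0* at 424 ± 106 CPM and *Sdha* at 386 ± 87.4 CPM. *Gapdh* was at 0.549 ± 0.467 CPM and *Ppia* at 5.53 ± 3.98 CPM, with 91.1% and 90% of their 3′ end words shared with other genes, and *B2m*, overlapped whole, was at 0. Glycolysis as a list held 0.0424% ± 0.00757, with *Pkm* at 235 ± 80.2, *Gpi1* at 56.7 ± 33.3, *Ldhb* at 41.7 ± 28.6 and *Ldha* at 27.5 ± 11.3 CPM. *Pgk1*, *Tpi1* and *Pfkl*, which share at most 1.48% of these words, were also low at 4.11, 2.21 and 0.366 CPM, and the glucose transporter *Slc2a1* had no counts. In the cytoskeleton list, with 0.0894% ± 0.0205, *Tuba1c* was at 142 ± 69.4, *Tuba1b* at 108 ± 86.4 and *Tubb4b* at 77.8 ± 37.4 CPM, and *Tuba1a* and *Cfl1* were at 0. Other genes overlap 1 of these 2 over all or nearly all of its length.

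Markers of other cells were low. The 18 genes of ovarian somatic cells summed to 111 to 172 CPM per embryo, led by *Nr2f2* with 64.4 ± 22.9, *Irx3* with 16.8 ± 12.5, *Wt1* with 11.8 ± 6.35 and *Kitl* with 11.4 ± 10.2 CPM. Other members of the list were lower, among them *Foxl2* at 3.69 ± 4.77 CPM, *Wnt4* at 2.95 ± 2.84 CPM and *Nr5a1* at 0.685 ± 0.959 CPM. *Tcf21* had no counts, and other genes overlap it over all or nearly all of its length.

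Erythroid genes varied widely. They summed to 86.2 to 238 CPM in WT and 284 to 1263 CPM in flox embryos, and flox embryo 1 was highest. The groups did not overlap, as was also so for 8.35% of single genes tested. None of the 3 tested erythroid genes was called. The mean share of the erythroid list, 0.0393%, was 0.0219% without flox embryo 1. The adult globin *Hbb-bs* was at 28.3, 49.9 and 110.5 CPM in WT and 645, 282 and 111 CPM in flox embryos, and *Hba-a1* at 16.3, 23.6 and 42.7 CPM and 375, 57.5 and 73.7 CPM. *Hbb-bt* was at 76.6 ± 56.4 and *Hba-a2* at 13.6 ± 29 CPM. The embryonic globins *Hbb-y* and *Hba-x* and the heme enzyme gene *Alas2* had no counts. Other genes overlap 1 of these 3 over all or nearly all of its length. The part of red cell RNA in the differences between embryos was not tested.

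The lists of the remaining cell types had mean sums of 0.315 to 104 CPM. Endothelial genes summed to 34.8 to 82.6 CPM, of which *Pecam1*, which early germ cells also express, made 37.5 ± 15.6 CPM, with *Tek*, *Cdh5* and *Kdr* at 9.49, 3.88 and 1.34 CPM. The neuronal list rested on *Syt1* with 103 ± 45.2 CPM, since *Snap25* and *Neurod1* had no counts, and *Rbfox3* and *Stmn2* were under 1 CPM. Other genes overlap 1 of the 2 neuronal genes at 0 over all or nearly all of its length. Leukocyte genes summed to 0.404 to 48.9 CPM, with *Cx3cr1* at 14.6 ± 17.3, *Adgre1* at 1.17 ± 1.36 and *Csf1r* at 0.0756 ± 0.185 CPM and *Ptprc* and *C1qa* at 0. Their mean share of 0.00158% was 0.000923% without WT embryo 1. Skeletal muscle, keratinocyte, cartilage, pituitary and liver lists had mean sums of 6.37, 7.29, 1.38, 7.72 and 0.315 CPM, and *Acta1*, *Myod1*, *Krt1*, *Krt5*, *Krt14*, *Matn1*, *Prl*, *Gh*, *Tshb*, *Apoa1*, *Ttr* and *Fgb* had no counts. Of these genes at 0, 1 muscle gene and 1 pituitary gene are overlapped by other genes over all or nearly all of their length. Without flox embryo 2 the mean share of the keratinocyte list went from 0.000729% to 0.000336% and that of the cartilage list from 0.000138% to 4.54e-05%. The detected members of these 5 lists were *Myog*, *Tnnt3* and *Ckm* with means of 4.01, 1.74 and 0.62 CPM, *Krt10* with 7.29 CPM, *Col2a1* and *Acan* with 1.01 and 0.378 CPM, *Pomc* with 7.72 CPM and *Alb* and *Afp* with 0.162 and 0.153 CPM. The 4 Y-linked genes summed to 2.99 to 8.58 CPM in these embryos labelled female, with *Uty* at 2.98, *Ddx3y* at 2.79, *Kdm5d* at 0.504 and *Eif2s3y* at 0 CPM.

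**Figure D5:**
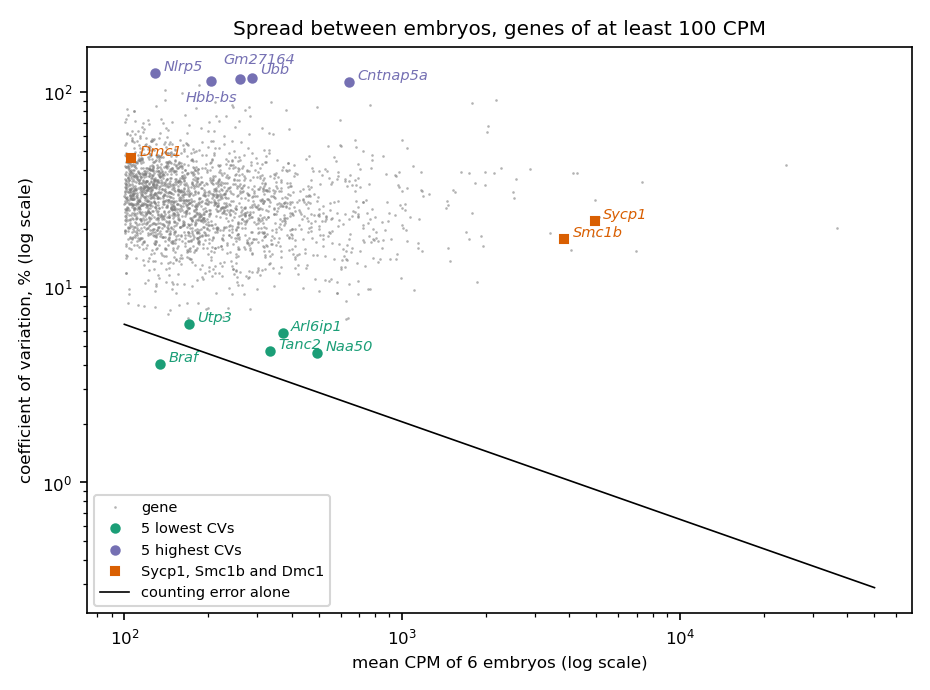
Coefficient of variation (percent) over 6 embryos against mean CPM, both on log axes, for the genes of at least 100 CPM, with the 5 lowest (green) and 5 highest (violet) and the 3 marker genes (orange squares). The black line is the spread that counting alone would give, and only a few genes such as *Braf* come near it.

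Over the 8992 genes with a symbol and a mean of at least 10 CPM, the pairs of embryos had Spearman's rho of 0.769 to 0.851 on log2(CPM + 1), with a median of 0.797 over 15 pairs, and Pearson's r of 0.712 to 0.818. These values are across genes, which are not independent. The median rho was 0.797 over the 6 pairs within a group and 0.798 over the 9 pairs between WT and flox. Any 2 embryos shared 62 to 77 of their 100 most abundant genes, 47 genes were in the top 100 of all 6 and 173 in that of at least 1.

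The median spread of genes exceeded counting error at every abundance. Genes of at least 1000 CPM, 62 in all, held 19.1% of the counts and had a median coefficient of variation (CV) of 28.5%, where counting alone gives 1.54%. The 2322 genes from 100 to 1000 CPM held 52.2% with a median CV of 27.4%, and the 6612 genes from 10 to 100 CPM held 26.1% with a median CV of 49.3%. The 6214 genes from 1 to 10 CPM held 2.48%, with a median CV of 130%, and 78.4% of them had no counts in at least 1 embryo.

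Among the 2384 genes of at least 100 CPM, 545 had a CV under 20%, 7 over 100% and 23 differed more than 10-fold between embryos. The lowest CVs were those of the kinase gene *Braf*, 4.06% around 135 CPM, the acetyltransferase gene *Naa50*, 4.59% around 493 CPM, *Tanc2*, 4.73% around 335 CPM, *Arl6ip1*, 5.80% around 371 CPM, and *Utp3*, 6.48% around 171 CPM. *Smc1b* and *Sycp1* had CVs of 17.7% and 21.9%, and *Dmc1* 46.1%. The highest were those of *Nlrp5* (126%), *Ubb* (118%), the noncoding RNA *Gm27164* (118%), *Hbb-bs* (114%) and the adhesion gene *Cntnap5a* (112%). *Cntnap5a* was at 2089, 579 and 252 CPM in WT and 214, 252 and 476 CPM in flox embryos, and *Gm27164* at 0, 352 and 224 CPM and 821, 0 and 164 CPM.

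Some genes of the top 30 owed their rank to part of the embryos. The rRNA gene *CT010467.1* was at 2997, 2828 and 1511 CPM in WT and 2356, 803 and 3100.0 CPM in flox embryos, lowest in flox embryo 2 and WT embryo 3. The kinase gene of the mediator complex *Cdk8*, at 2322, 2999 and 439 and 2115, 473 and 3904 CPM, and the calmodulin kinase gene *Camk1d*, at 2249, 2421 and 279.7 and 1261, 177 and 4349 CPM, were low in the same 2 embryos. *Gm11942* was at 2887, 54 and 1754 CPM in WT and 88, 5250.3 and 3012 CPM in flox embryos, low in WT embryo 2 and flox embryo 1. The cause of these splits was not tested.

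WT and flox embryos differ in cross, allele and tamoxifen, which cannot be told apart, and they were compared only to see whether the controls may be described together. Of 10877 genes that passed the filter on low counts, 1 was called (0.00919%; edgeR quasi-likelihood test, Benjamini-Hochberg adjusted p ≤0.05), and 272 had an unadjusted p under 0.05. DESeq2 called 13 and limma's voom 1. The called gene was the polyubiquitin gene *Ubb* (ENSMUSG00000019505.7), on chromosome 11 from 62551171 to 62553213. It was at 7.72, 3.18 and 12.5 CPM in WT and 362, 822 and 525 CPM in flox embryos. The log2 fold change was 6.09 (standard error 0.51, edgeR adjusted p = 7.55e-05), and other genes hold 90.4% of its 3′ end words.

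Of all tested genes, 8.35% had WT and flox values that did not overlap. This was so for 1 of 43 tested meiotic members, *Gm4969*, 1 of 43 tested germline members, *Zp2*, and 26 of 334 tested housekeeping members. The median log2 difference of flox against WT was 0.10 over the tested meiotic members, −0.05 over the germline members and 0.11 over the housekeeping members, beside −0.01 over all tested genes. With 3 embryos a group the median standard error of a gene's log2 fold change was 0.64, so differences of this size are not detectable for most genes.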

How the data were processed

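3′ Tag-Seq libraries (QuantSeq 3′ FWD) of sorted E17.5 germ cells were used from the 6 WT and flox embryos, grouped by their labels. The authors trimmed reads with cutadapt, aligned them to mm10 with STAR 2.6.0 and counted them with featureCounts 1.6.3 (versions from the submitters' processing notes), and the deposited counts are raw reads per gene. Each gene's length in the table equals its whole interval, so intron reads can be counted. Strand setting and annotation are not given in the sources used here. The deposited tables of the authors' comparisons (log2 fold changes, p-values) were not used.

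Gene names came from GENCODE M21 (55154 of 55335 IDs, and the 181 others held 0.013% of counts). CPM used the total over all gene rows. Flox was compared with WT in edgeR 4.0.16 (R 4.3.3; filterByExpr with minimum count 10, TMM, quasi-likelihood F test, Benjamini-Hochberg), with a script tested on simulated counts. DESeq2 1.42.0, limma 3.58.1 (voom), other scalings and filters, a replicate block and each embryo left out were alternatives. Overlap was taken between gene intervals. Shared 3′ ends, a measure added after the zeros were seen, used 31-base words in the last 300 bases of the longest coding transcript.

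The text names the 30 genes of highest mean CPM, the 3 markers, the 4 highest members of each of 38 lists and those at 0, the called genes, the 5 lowest and 5 highest CVs at 100 CPM or more and the 5 highest noncoding genes, and other list members were named after their values were seen. Some genes of the rule are not reported here. Members and lists were chosen with earlier results of these data known. P-values set the difference between WT and flox against the spread between embryos, which were taken as independent.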

Additional observations from a re-analysis of the deposited data

Results flagged for a closer look

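Of 71 quantities checked for an embryo far from the other 5, 9 were flagged. The quantities were 38 list shares less the Y-linked one, 3 class shares, the 30 most abundant genes and *Dmc1*. The cutoff flags about 1 in 20 by chance where values are independent and normally distributed. Class shares hold list shares and lists hold top genes, so the 9 cannot be set against this rate. *Sycp1* was at 2911 CPM in flox embryo 1 and at 4977 to 6070 CPM in the others. *Sub1* was at 2234 CPM in flox embryo 1, above 1699 to 1887 CPM elsewhere, and *Malat1* at 4406 CPM in WT embryo 1, above 1899.7 to 2452 CPM elsewhere.

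The germline lists together held 0.871% in WT embryo 1 and 1.14% to 1.18% in the others. WT embryo 2 stood apart in the zona pellucida and oocyte growth genes with 0.0556%, against 0.0145% to 0.0267%, and in the DNA methylation enzymes with 0.0552%, against 0.0421% to 0.0460%. Flox embryo 1 held 0.126% in erythroid genes, against 0.00862% to 0.0397%. The share of leukocyte genes was 0.00489% in WT embryo 1, against 4.04e-05% to 0.00177%, and that of keratinocyte genes 0.00269% in flox embryo 2, against 4.54e-05% to 0.00101%. The causes were not tested.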

How the results depend on the processing

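Of the 30 most abundant genes, 24 to 30 remained in the top 30 under TMM scaling, the median, WT or flox embryos alone and with mitochondrial genes left out of the total, and 28 or 29 with an embryo left out, but 17 did per kilobase of merged exons. Leaving out the 25198 genes overlapped by another gene, which hold 50.4% of the counts, moved the shares to 13.1% for the mitochondrial genome, 1.41% for germline lists, 0.523% for meiosis lists and 0.0101% for ovarian somatic genes. *Sycp1* and *Smc1b*, overlapped over 0.869% and 0.621% of their length, leave the meiosis lists under this setting. It moved the share of crossover genes from 0.0937% to 0.00336%, of double-strand break genes from 0.0618% to 0.0265%, of strand exchange genes from 0.125% to 0.0507%, of telomere attachment genes from 0.0378% to 0.0234%, of DNA methylation enzymes from 0.0464% to 0.0145%, of translation factors from 1.28% to 0.653% and of neuronal genes from 0.0104% to 4.19e-05%. It raised that of meiotic entry genes from 0.0287% to 0.0578%, of oocyte transcription factors from 0.254% to 0.462%, of primordial germ cell genes from 0.0813% to 0.158% and of chaperones from 1.92% to 3.26%, with a total that holds fewer counts. Of 36 other shares, 24 moved under this setting by more than 1 SD between embryos, 6 without mitochondrial genes in the total and 0 under TMM scaling. The median rho was 0.823 over genes of at least 1 CPM and 0.681 over those of at least 100 CPM. At least 10 counts in every embryo were found for 7488 genes. Flox against WT gave 15 calls with no filter beyond 1 count, 13 with DESeq2 (9 with a library at 0) and 1 to 6 with an embryo left out, 6 without WT embryo 3 and 3 without flox embryo 1. *Ubb* was called in every setting. Replicate numbers did not pair the embryos (correlations of deviations 0.02, −0.04 and −0.01), and the replicate block gave 1 call. Depth limits statements on genes under 10 CPM, where an embryo has few counts.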
